A study of Mus musculus with 2 samples.

Results

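Mitochondrial ribosomal proteins are the protein subunits of the mitoribosome, the ribosome inside mitochondria. Their genes were chosen by symbol: protein-coding mouse genes whose name starts with Mrpl or Mrps followed by a number, pseudogenes left out. The annotation held 78 such genes, and 77 of them had a row in the gene tables, among 43346 gene rows and 21474 protein-coding genes. By symbol, 48 belonged to the large subunit (Mrpl) and 29 to the small subunit (Mrps). Mrpl33 was not analysed here.

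The samples were 2 pieces of the cerebellar granule layer, captured from mouse tissue with a laser, each made into 1 library with the Smart-seq method, which amplifies full-length copies of RNA from few cells. Both came from wild-type B6NCrl males at 8 months of age, each covered 18000 square microns, and 50 cells is the stated input per library. They form 1 group with n = 2 and carry the same donor label, and whether they came from 1 animal is not stated. There was no treatment, no other genotype and no other tissue, so the comparisons open to the data are those among the genes, between the subunits and between the areas. The questions were at what level each gene was present, whether large and small subunit genes stood at different levels, and which genes differed between the areas.

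Mitoribosomes are assembled from proteins made in the cytosol from nuclear genes and imported, and from ribosomal RNAs transcribed from the mitochondrial genome. The small subunit holds the messenger RNA and the decoding site, and the large subunit joins the amino acids and passes the new chain to the inner membrane. The proteins made this way are subunits of the respiratory chain and the ATP synthase, on which neurons depend for ATP. Some of the subunits descend from bacterial ribosomal proteins, and others were added in mitochondria.

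The deposited expected counts assigned to genes summed to 19962271 in replicate 1 and 19261911 in replicate 2. All 6 markers of granule neurons were detected in both areas, with summed levels of 2504 and 2768 TPM (transcripts per 1000000 transcripts, a level corrected for transcript length). Markers of other cells were also present. Globin genes of red blood cells summed to 5036 TPM in replicate 1 and 388 in replicate 2, 13.0-fold apart, and oligodendrocyte markers summed to 534 and 659, astrocyte and Bergmann glia markers to 481 and 443, endothelial markers to 213 and 168, microglia markers to 79.7 and 60.3 and Purkinje cell markers to 99.6 and 168. Of these lists, all members were detected in both areas except 1 of the 4 microglia markers, and none was at 0 in both. In such bulk libraries more cells of a type and more RNA per cell cannot be told apart.

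All 77 genes were detected in both areas, where detection asks for 1 TPM or more together with 5 or more expected counts. Of all protein-coding genes, 50.4% passed the same rule. The lowest count of any of the 77 genes in a library was 394, for Mrpl44 in replicate 1, and the highest was 4462, for Mrps14 in replicate 2. Their median level was 74.3 TPM in replicate 1 and 82.8 TPM in replicate 2, against 13.2 and 13.1 TPM over the 11259 protein-coding genes with a mean TPM of at least 1. Ranked by mean TPM among all protein-coding genes, the median member stood at the 93.1 percentile, the lowest at 73.6 and the highest at 99.1. Together the genes took 8315 TPM in replicate 1 and 8978 TPM in replicate 2.

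Levels spanned a 40.4-fold range, from 13.1 ± 1.36 TPM for Mrps2 to 528 ± 7.93 TPM for Mrps21 (mean ± SD, n = 2 areas). In the small subunit the highest levels by mean TPM belonged to Mrps21, counterpart of the bacterial small subunit protein S21, at 533 TPM in replicate 1 and 522 TPM in replicate 2. Mrps33, a mitochondria-specific subunit, followed at 373 and 398 TPM, and Mrps18c, counterpart of bacterial S18, at 322 and 331 TPM. Mrps14, counterpart of bacterial S14, had 281 and 322 TPM. These 4 genes had the same order in both areas, although the higher value of Mrps14 came up to the lower value of Mrps18c. Below them, Mrps36 had 239 and 245 TPM; its protein is now known as a part of the 2-oxoglutarate dehydrogenase complex and not of the ribosome.

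The 5 highest large subunit genes by mean TPM were Mrpl20, Mrpl48, Mrpl42, Mrpl41 and Mrpl30. Mrpl20, counterpart of bacterial L20, which binds ribosomal RNA early in assembly in bacteria, had 376 TPM in replicate 1 and 381 TPM in replicate 2. Mrpl48, a mitochondria-specific subunit, had 316 and 396 TPM, so that its values enclosed both values of Mrpl20 and the order of these genes was not the same in the areas. Mrpl42 had 289 and 309 TPM, Mrpl41 270 and 288 TPM, and Mrpl30 219 and 231 TPM. The ranges of Mrpl48 and Mrpl42 did not meet, those of Mrpl42 and Mrpl41 nearly did, and Mrpl30 lay below all of them in both areas.

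By mean TPM, the lowest levels in the small subunit were those of Mrps2 at 14.0 TPM in replicate 1 and 12.1 TPM in replicate 2, Mrps27 at 15.4 and 18.4 TPM, Mrps30 at 21.6 and 23.4 TPM, Mrps9 at 27.2 and 30.0 TPM, and Mrps22 at 33.5 and 36.4 TPM. Mrps27 belongs to the pentatricopeptide repeat proteins, a family that binds RNA, and Mrps22 is a gene mutated in human mitochondrial disease. In the large subunit the lowest by the same mean were Mrpl19 at 12.7 and 14.9 TPM, Mrpl44 at 17.6 and 20.8 TPM, Mrpl35 at 21.2 and 24.8 TPM, Mrpl9 at 27.7 and 25.4 TPM, and Mrpl39 at 24.1 and 29.2 TPM. Mrpl44 carries a fold of the ribonuclease III family. The counts behind the lowest levels were not small: Mrpl19 had 908 and 936 counts on a transcript estimated at 4273 and 3869 bases, and Mrpl35 had 1313 and 1494 counts on 3715 bases.

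**Figure D1:**
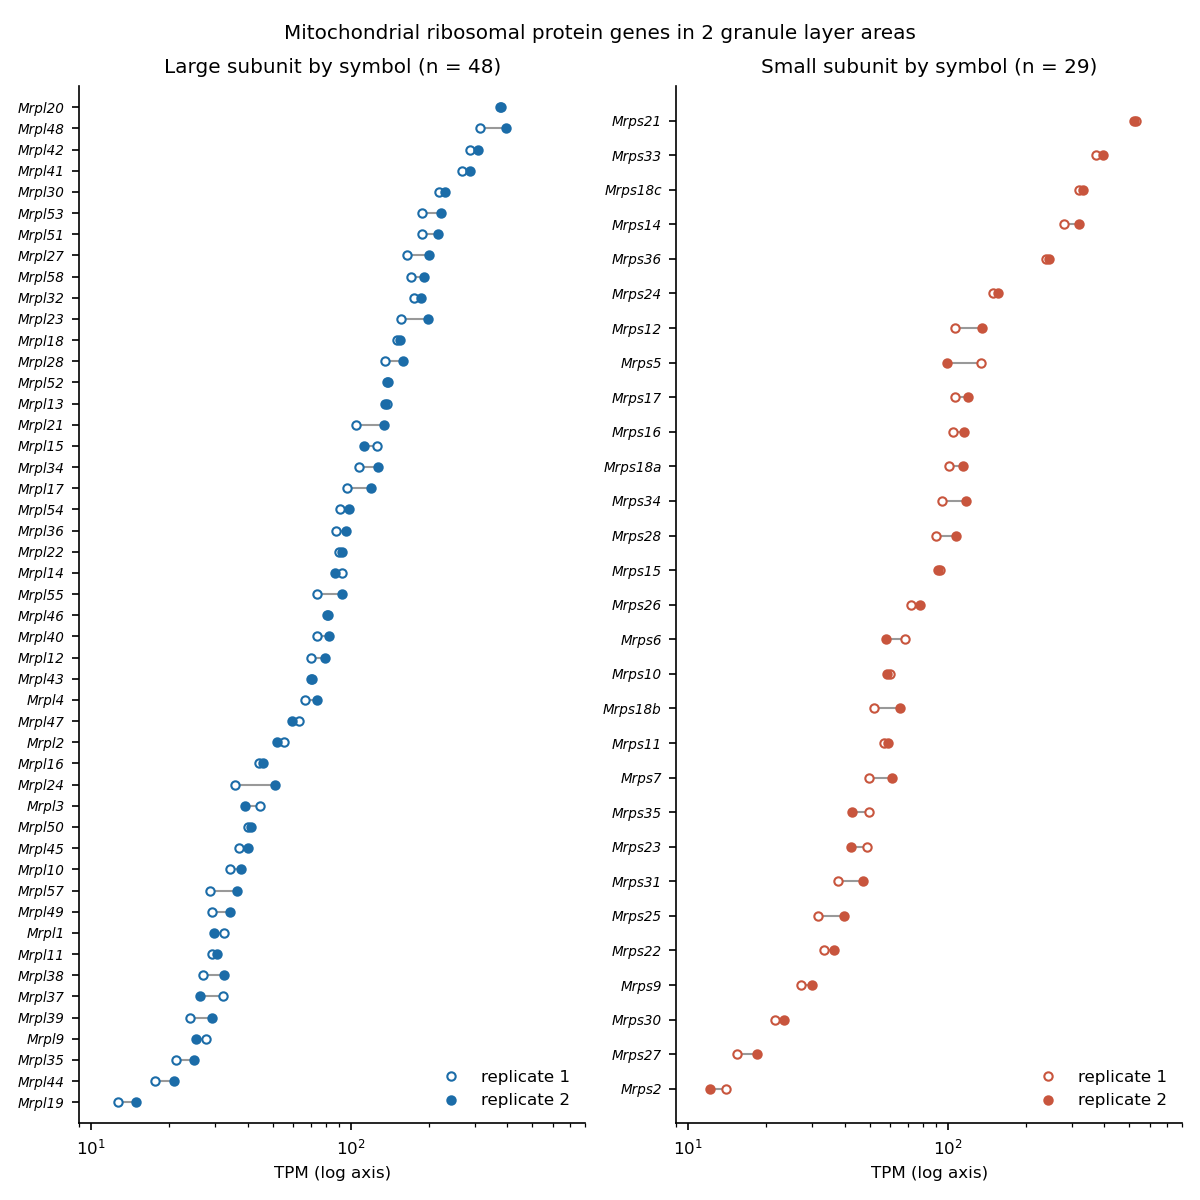
Level of each of the 77 genes in TPM (log axis) in replicate 1 (open) and replicate 2 (filled), with a line joining the areas, for 48 large and 29 small subunit genes ordered by mean. Both subunits run over a similar range, from 12.7 TPM for Mrpl19 to 396 TPM for Mrpl48 in the large and from 12.1 to 533 TPM in the small subunit, and the areas lie close together for each gene.

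Large and small subunit genes stood at much the same level. The median was 77.8 TPM for large and 72.5 TPM for small subunit genes in replicate 1, and 85.0 and 77.9 TPM in replicate 2. The log2 ratio of the medians, large over small, was 0.10 in replicate 1 and 0.13 in replicate 2, or 1.08-fold. The mean over genes gave the opposite order, with 103 TPM for large and 116 TPM for small subunit genes in replicate 1 and 113 and 122 TPM in replicate 2, and the difference of mean log2(TPM + 1) was -0.02. The sign therefore depended on the summary used, and no direction can be given. Genes are not replicates of a subunit, so no test was made of this difference.

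Some symbols do not match the subunit in which the protein sits. Mrps30 and Mrps18a are named for the small subunit but sit in the large one, and Mrps36 in neither. Mrps30 had 21.6 TPM in replicate 1 and 23.4 TPM in replicate 2, and Mrps18a had 101 and 114 TPM. With these moved and Mrps36 left out, 50 large and 26 small subunit genes gave medians of 77.8 and 70.6 TPM in replicate 1 and of 85.0 and 71.8 TPM in replicate 2, a log2 ratio of 0.14 and 0.24. The 3 paralogs that share the S18 name stood apart in level: Mrps18c at 322 and 331 TPM, Mrps18a at 101 and 114 TPM and Mrps18b, placed elsewhere in the small subunit, at 52.1 and 65.7 TPM. Their ranges did not overlap.

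By origin, 44 genes were counted as encoding counterparts of bacterial ribosomal proteins and 32 as encoding mitochondria-specific subunits. Mrpl55, at 74.2 TPM in replicate 1 and 92.3 TPM in replicate 2, was counted as mitochondria-specific. The standard nomenclature names it a counterpart of bacterial L31, and the values by class keep it where it was counted. The bacterial-type genes had a median of 91.4 TPM in replicate 1 and 94.3 TPM in replicate 2, and the mitochondria-specific genes 61.2 and 68.3 TPM. The log2 ratio, mitochondria-specific over bacterial-type, was -0.58 and -0.47. The median estimated length was 925 bases in the first class and 1156 bases in the second, and on CPM, counts per 1000000 gene counts with no correction for length, the log2 ratio was -0.11. What part length takes in this difference was not tested.

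Level followed transcript length closely. Across the 77 genes the Spearman correlation of length with TPM was -0.85 in replicate 1 and -0.86 in replicate 2, against -0.29 in both areas over the 11259 expressed protein-coding genes; these values are across genes, which share the libraries and are not independent replicates. The 40 genes under 1000 bases had a median of 130 TPM in replicate 1 and 135 TPM in replicate 2, and the 37 longer genes 35.9 and 39.8 TPM. TPM divides counts by length, so length enters both sides of this relation. On CPM the correlation was -0.34 and -0.39, and the highest gene, Mrps14, exceeded the lowest, Mrpl44, by 10.05-fold in mean CPM. With the longest coding transcript in the annotation in place of the estimated length, the mean correlation with TPM was -0.43. Among genes under 1000 bases the large subunit had the higher median in both areas, at 138 against 107 TPM and 137 against 119 TPM, and among longer genes the small subunit had, at 37.9 against 35.02 TPM and 42.4 against 38.4 TPM.

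**Figure D2:**
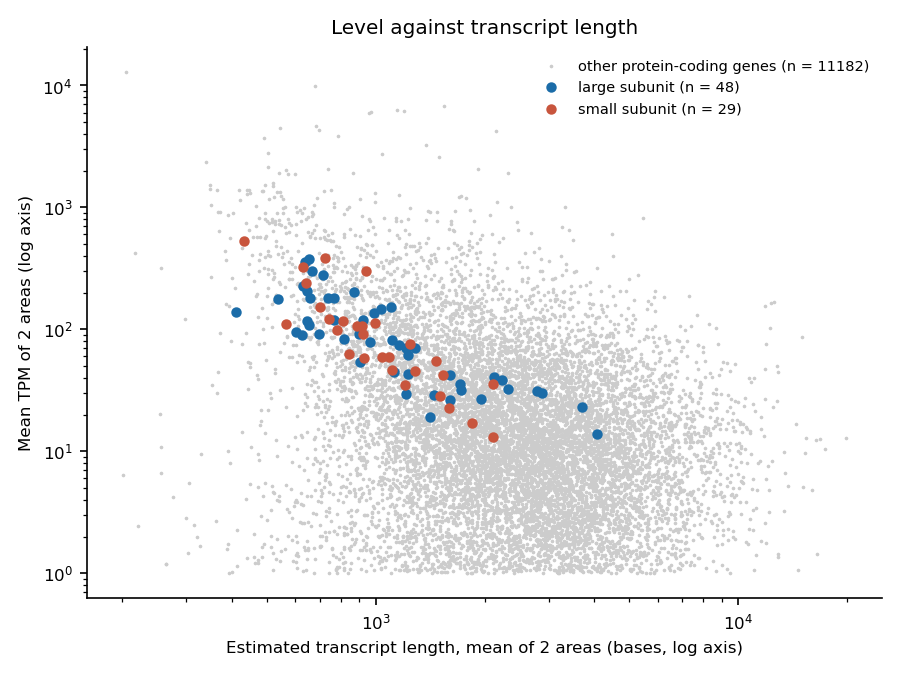
Mean TPM of the 2 areas against estimated transcript length in bases (both axes log) for large subunit genes (blue), small subunit genes (red) and the other 11182 protein-coding genes with a mean TPM of at least 1 (grey). Genes of both subunits fall along 1 band that descends with length, where the other genes spread widely at each length.

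Several members have known parts in the working of the ribosome. Mrps12, counterpart of bacterial S12, which shapes the accuracy of decoding, had 107 TPM in replicate 1 and 135 TPM in replicate 2. Mrps5, counterpart of bacterial S5 near the decoding site, had 134 and 99.7 TPM, and Mrps7, counterpart of bacterial S7, which contacts transfer RNA, had 49.6 and 60.9 TPM. Mrps34, a mitochondria-specific small subunit protein mutated in human mitochondrial disease, had 95.4 and 118 TPM. Mrps12 and Mrps34 lay at like levels, while Mrps7 was lower than both in each area. Exons of Mrps34 overlapped those of Mapk8ip3 and Nme3, and exons of Mrps7 those of Gga3 and Mif4gd. The division of reads between these neighbours is uncertain.

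In the large subunit, Mrpl3, counterpart of bacterial L3 near the peptidyl transferase centre, had 44.8 TPM in replicate 1 and 39.2 TPM in replicate 2. Mrpl11, counterpart of bacterial L11 at the base of the stalk where translation factors bind, had 29.1 and 30.6 TPM, and Mrpl12, the stalk protein, had 70.3 and 79.4 TPM. Mrpl12 was above Mrpl11 in both areas. Mrpl45, which lies at the exit of the protein tunnel and anchors the ribosome to the inner membrane, had 36.9 and 40.1 TPM. Mrpl58, a peptidyl-tRNA hydrolase that became a subunit, had 171 and 191 TPM, and Mrpl57, a mitochondria-specific subunit, had 28.6 and 36.3 TPM.

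Mrpl23, counterpart of bacterial L23 at the tunnel exit, could not be measured apart from its processed pseudogene. Mrpl23 lies at chr7:142532686-142540747 on the plus strand and Mrpl23-ps1 at chr2:74591330-74591909 on the minus strand (GRCm38, the build also called mm10). A local alignment of the coding transcript Mrpl23-201, of 692 bases, with the pseudogene, of 580 bases, held 540 columns with 0 mismatches and 0 gaps. The first 120 bases of the coding sequence, from base 167 of the transcript, are shown because they are the same letters in both; no base is in capitals, since capitals would mark a mismatch.
Mrpl23: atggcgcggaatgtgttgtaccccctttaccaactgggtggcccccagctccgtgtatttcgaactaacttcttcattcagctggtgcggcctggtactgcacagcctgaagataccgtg
Mrpl23-ps1: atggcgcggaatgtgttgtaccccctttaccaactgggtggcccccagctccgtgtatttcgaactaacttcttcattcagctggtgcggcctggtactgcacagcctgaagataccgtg

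The deposited expected counts were 1171 for Mrpl23 and 1189 for the pseudogene in replicate 1, and 1444 and 1446 in replicate 2. The gene thus received 49.6% and 50.0% of the counts of the pair. By the deposited percentages, 96.5% of Mrpl23 in replicate 1 and 96.9% in replicate 2 went to another transcript, Mrpl23-202, of 531 bases. A later annotation labels Mrpl23-202 a noncoding processed transcript, at a different length of 644 bases. Mrpl23-202 was not part of the alignment. The deposited posterior SD of the pseudogene's count was 88.5 in replicate 1 and 101 in replicate 2, and that of Mrpl23 reached 7.55% of its count. The level of 156 TPM in replicate 1 and 198 TPM in replicate 2 given to Mrpl23 is therefore uncertain, and the pair together had 300 and 379 TPM. The other 4 pseudogenes with such names had few counts: Mrps36-ps1 had 11.6 and 4.46, Mrps36-ps2 11.3 and 11.8, Mrpl48-ps 8.59 and 7.54, and Mrps36-ps3 was at 0. Of the other members, Mrps25 and Mrps18b also had a posterior SD over 1% of the count, at 2.60% and 1.01%.

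Exons of 32 of the 77 genes overlapped exons of another annotated gene, 28 of them with a gene on the opposite strand, and the use of strand in counting is not given in the sources used here. In 9 genes a neighbour held at least as many counts as the member. They were Mrpl18, Mrpl36, Mrpl44, Mrpl47, Mrpl48, Mrps11, Mrps25, Mrps34 and Mrps6. Mrpl48 overlapped Rab6a, a regulator of Golgi traffic with 10957 counts in replicate 1 and 9621 in replicate 2, and Mrpl36 overlapped Ndufs6, a subunit of respiratory complex I with 5013 and 4684 counts. Mrpl47 overlapped Ndufb5, another complex I subunit, and Mrpl18 overlapped Tcp1, a chaperonin subunit. Mrps11 and Mrpl46 overlapped each other on opposite strands, at 56.6 and 59.1 TPM for Mrps11 and 81.2 and 81.6 TPM for Mrpl46. For these genes the division of reads between neighbours is uncertain.

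Of the 77 genes, 19 had 1 counted transcript and 58 had several, up to 11 for Mrps10. In 52 of the 58, the leading transcript took over 50% of the gene by the deposited percentages, and in 17 over 90%. The shares were much the same in both areas: the median over the 58 genes of the largest shift was 2.5 percentage points, and 8 genes shifted by more than 10. The largest shift was in Mrpl45, where a transcript of 493 bases went from 0 counts to 56.3 counts and from 0 to 21.4% of the gene. In Mrps35, the leading transcript had 67.4% in replicate 1 and 85.5% in replicate 2.

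The leading transcript was not always annotated as coding. Among the 55 genes whose leading transcript had the same length in the annotation used for names, it was protein-coding in 45 and of another type in 10. In Mrps26 a transcript annotated as retaining an intron took 94.4% and 94.2%, and in Mrps14 a transcript annotated for nonsense-mediated decay took 87.1% and 88.4%. In Mrps24 a retained-intron transcript took 73.1% and 76.2%, and in Mrpl47 a noncoding processed transcript took 74.6% and 74.3%. These shares are estimates among transcripts that have most exons in common, and the type labels come from a later annotation release than the counts.

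The areas gave closely similar levels. Across the 77 genes log2(TPM + 1) had a Pearson correlation of 0.99 between the areas, and across 5396 other protein-coding genes within the same TPM range it was 0.98. No gene of the 77 differed by more than 1.5-fold in TPM. The differences that did exist leaned towards replicate 2: 60 of the 77 genes (77.9%) had a higher TPM there, against 49.1% of protein-coding genes with a mean TPM of at least 1, and the median log2 ratio of TPM + 1, replicate 2 over replicate 1, was 0.12 for the 77 genes and -0.01 for those genes. Among the other protein-coding genes within the same TPM range, 52.2% had the higher value in replicate 2 and the median ratio was 0.01, and for those of them under 1000 bases the figures were 59.3% and 0.06.

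The lean was present in both subunits and in both classes. Of the large subunit genes 39 of 48 were higher in replicate 2 (81.2%), and of the small 21 of 29 (72.4%). Of the genes counted as mitochondria-specific, 29 of 32 were higher (90.6%), with Mrpl55 among the 29. Of those counted as bacterial-type, 30 of 44 were higher (68.2%). The median log2 ratio was 0.13 in the large and 0.11 in the small subunit. Summed globin levels, summed mitochondrial ribosomal RNA and the Purkinje cell markers also differed between the areas, and their part in this was not tested beyond 1 value: with globins and all genes of the mitochondrial genome left out of the TPM total, 56 of the 77 genes were higher in replicate 2, against 45.8% of expressed protein-coding genes, and the median log2 ratio was 0.09, against -0.03.

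Each gene's rounded counts were set against the library totals in an exact binomial test, two-sided, with Benjamini-Hochberg adjustment over all 16659 genes with at least 10 counts in total. At an adjusted p under 0.05, 43 of the 77 genes (55.8%) differed between the libraries by more than counting error, against 47.6% of all genes tested and 54.1% of other protein-coding genes within the same TPM range, a share near the background. By direction, 37 of the 77 (48.1%) were called higher in replicate 2, against 23.7% of all genes, and 6 (7.79%) were called higher in replicate 1, against 23.9%. Among other protein-coding genes within the members' TPM range these shares were 31.4% and 22.7%, and among those of them under 1000 bases 36.1% and 16.9%. The test compares these 2 libraries and takes each read as an independent molecule, which amplified reads are not; with counts divided by 10, 0 of the 77 genes passed the exact binomial test, and 1.13% of all genes did.

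Mrpl24, counterpart of bacterial L24, which starts assembly of the large subunit in bacteria, had the largest rise in replicate 2, from 35.9 TPM (695 counts) to 50.9 TPM (957 counts), a log2 ratio of 0.49 (exact binomial test, adjusted p = 1.73e-11). Exons of Mrpl24 overlapped those of Rrnad1 on the opposite strand, which had 803 counts in replicate 1 and 602 in replicate 2. The division of reads between Mrpl24 and Rrnad1 is uncertain, and its part in the difference was not tested. Mrpl21 went from 104 TPM (1192 counts) to 135 TPM (1503 counts), a log2 ratio of 0.37 (exact binomial test, adjusted p = 1.03e-10). The next were Mrpl23 at 0.34, with the doubt about its pseudogene given above, Mrps12 at 0.34 (exact binomial test, adjusted p = 3.56e-08) and Mrpl57 at 0.33 (exact binomial test, adjusted p = 2.27e-08). Mrpl48, among the highest of all the genes, had a log2 ratio of 0.33 (exact binomial test, adjusted p = 3.21e-15), with the doubt about Rab6a given above.

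Mrps5 was the gene furthest the other way, from 134 TPM (1579 counts) in replicate 1 to 99.7 TPM (1223 counts) in replicate 2, a log2 ratio of -0.42 (exact binomial test, adjusted p = 8.59e-08). Mrpl37, a mitochondria-specific large subunit protein, went from 32.2 TPM (743 counts) to 26.2 TPM (593 counts), a log2 ratio of -0.29 (exact binomial test, adjusted p = 0.00198). Mrps6, counterpart of bacterial S6, had a log2 ratio of -0.25 (exact binomial test, adjusted p = 0.00337). Exons of Mrps6 overlapped those of Slc5a3 on the same strand, which had 951 and 839 counts, so the division of their reads is uncertain. Mrps35 at -0.21 and Mrps2 at -0.20 did not pass, with adjusted p = 0.232 and 0.138 in the same exact binomial test. Of the remaining genes called higher in replicate 1 by their counts, Mrps23 went from 987 to 836 counts, Mrpl15 from 1772 to 1545 and Mrpl45 from 1476 to 1280.

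For 3 genes TPM and CPM pointed in opposite directions; TPM uses a length estimated in each library, and these lengths also differed. Mrpl45 had 36.9 TPM in replicate 1 and 40.1 TPM in replicate 2 while its CPM fell from 73.9 to 66.5, with estimated lengths of 2431 and 2016 bases. Mrps35 had 49.7 TPM in replicate 1 and 42.8 TPM in replicate 2 with a CPM of 38.6 and 41.5, and lengths of 1003 and 1220 bases. Mrpl2 had 55.2 and 52.0 TPM with a CPM of 37.1 and 37.5, and lengths of 882 and 933 bases.

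**Figure D3:**
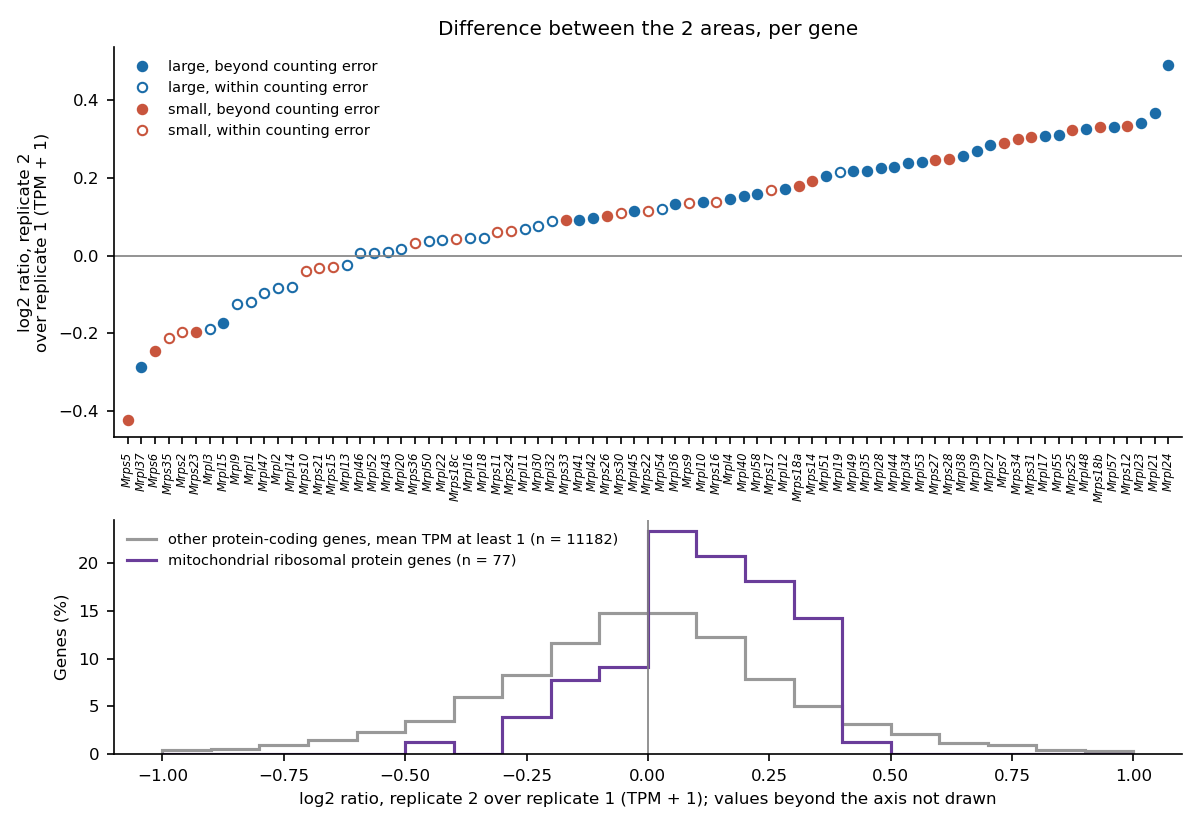
Upper panel: log2 ratio of TPM + 1, replicate 2 over replicate 1, for each of the 77 genes in order, filled where the count difference exceeded counting error (exact binomial test, adjusted p under 0.05). Lower panel: percent of genes in bins of that ratio for the 77 genes (purple) and for 11182 other expressed protein-coding genes (grey); the purple outline lies to the right, with a median of 0.12, and runs from -0.42 for Mrps5 to 0.49 for Mrpl24.

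Promoters of 68 of the 77 genes were found in the RefSeq promoter table (GRCm38.p6), each a window from 250 bases before to 50 bases after an annotated start. They were searched on both strands for letters bound by known regulators of such genes: GCGCATGCG for NRF1 (nuclear respiratory factor 1), CCGGAAG for ETS factors, which include the GA-binding protein, and AAGATGGC for YY1. The ETS letters were in 25 of the 68 genes (36.8%), against 21.0% of 8897 expressed protein-coding genes with a window and 9.93% of all 27025 genes in the table. The YY1 letters were in 12 (17.6%), against 5.68% and 3.19%, and the NRF1 letters in 7 (10.3%), against 4.48% and 1.95%. The GC-box letters GGGCGG were in 34 (50.0%), against 70.0% of expressed genes, and TATAAA in 5 (7.35%), against 8.25%. No word is part of another, and the NRF1 word overlaps its own reverse complement, so a gene is counted once. Letters in a window are a description and not a binding site.

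At least 1 of the NRF1, ETS and YY1 words was in 37 of the 68 genes (54.4%), against 28.6% of expressed genes, and 7 genes held 2 of the 3. In 8 of the 12 genes with the YY1 word it was in forward orientation, 11 to 36 bases after the annotated start, and all NRF1 words began before the start. By subunit, the ETS letters were in 14 of 42 large and 11 of 26 small subunit genes, the YY1 letters in 6 and 6, and the NRF1 letters in 6 and 1. The windows below are from 3 of the 7 genes that hold 2 of the 3 words, and capitals mark the NRF1, ETS and YY1 letters on either strand. Mrpl32 lies on the minus strand (window chr13:14612988-14613287), Mrps18b on the minus strand (window chr17:35916391-35916690) and Mrps27 on the plus strand (window chr13:99344536-99344835).
Mrpl32: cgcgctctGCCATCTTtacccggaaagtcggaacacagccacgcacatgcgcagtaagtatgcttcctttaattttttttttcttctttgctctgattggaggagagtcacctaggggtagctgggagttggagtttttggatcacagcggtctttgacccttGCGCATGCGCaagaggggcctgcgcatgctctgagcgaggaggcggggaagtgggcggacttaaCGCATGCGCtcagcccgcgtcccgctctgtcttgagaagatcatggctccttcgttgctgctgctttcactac
Mrps18b: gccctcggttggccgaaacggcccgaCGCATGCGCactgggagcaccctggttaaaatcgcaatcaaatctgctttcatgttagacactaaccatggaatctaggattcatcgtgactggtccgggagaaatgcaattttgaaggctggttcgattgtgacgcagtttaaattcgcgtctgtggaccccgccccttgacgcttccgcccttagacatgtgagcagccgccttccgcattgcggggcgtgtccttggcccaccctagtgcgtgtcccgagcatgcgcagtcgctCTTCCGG
Mrps27: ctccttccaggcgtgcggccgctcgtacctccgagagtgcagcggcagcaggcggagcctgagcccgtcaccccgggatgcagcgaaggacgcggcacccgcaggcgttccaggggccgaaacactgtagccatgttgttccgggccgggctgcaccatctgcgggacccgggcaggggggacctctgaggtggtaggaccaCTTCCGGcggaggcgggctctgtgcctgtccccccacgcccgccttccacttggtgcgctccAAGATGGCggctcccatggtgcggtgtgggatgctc

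Mrpl32, counterpart of bacterial L32, had 175 TPM in replicate 1 and 186 TPM in replicate 2 and a window with NRF1 and YY1 letters. Mrps18b had 52.1 and 65.7 TPM with NRF1 and ETS letters, and Mrps27 15.4 and 18.4 TPM with ETS and YY1 letters. Genes with a pair of the words thus lay both above and below the median of all the genes.

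Each of these 3 genes also has a protein-coding neighbour that starts on the other strand and runs away from it. Of the other genes with 2 of the words, Mrps12 has one too, while Mrpl17, Mrpl22 and Mrps18a have none within 1000 bases. Such a divergent partner within 1000 bases was annotated for 18 of the 77 genes (23.4%), against 10.6% of expressed and 6.79% of all protein-coding genes. It was found for 12 of 48 large and 6 of 29 small subunit genes. Mrpl32 starts 75 bases from Psma2, a proteasome subunit with 405 and 436 TPM, and Mrps18b 45 bases from Ppp1r10, a regulator of protein phosphatase 1 with 39.3 and 54.3 TPM. The YY1 word of Mrpl32, at -242 from the annotated start, lay beyond the start of Psma2, within the partner gene. So did the NRF1 word of Mrps18b, at -224, with respect to Ppp1r10. Mrps27 starts 81 bases from Ptcd2, a pentatricopeptide repeat protein with 34.6 and 23.8 TPM. Mrpl49 starts 59 bases from Fau, which encodes a ribosomal protein of the cytosol and had 594 and 668 TPM beside 29.3 and 34.2 TPM of Mrpl49. Mrps12 starts 172 bases from Sars2, the mitochondrial seryl-tRNA synthetase, which had 3.32 and 3.94 TPM beside 107 and 135 TPM of Mrps12.

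In other pairs the partner was far lower than the ribosomal protein gene. Helq, a DNA helicase 29 bases from Mrps18c, had 26.9 and 25.5 TPM beside 322 and 331 TPM, and Lrrc46, 153 bases from Mrpl10, had 1.32 and 0.05 TPM beside 34.1 and 37.6 TPM. The overlapping and partner genes named here were chosen after their values were seen. The genes were spread over the chromosomes, with 11 on chromosome 11, 8 on chromosome 17, 7 on chromosome 6 and none on 12, 18, X or Y.

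**Figure D4:**
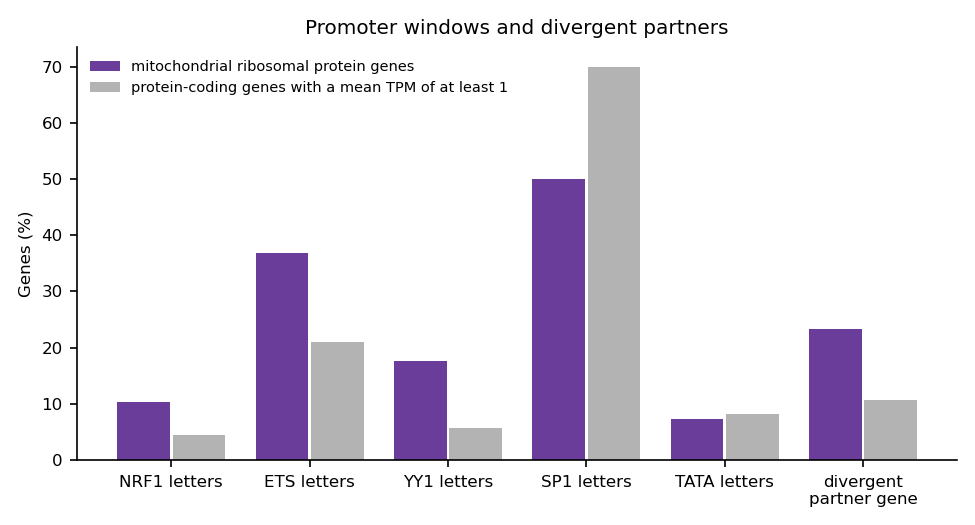
Percent of genes whose promoter window holds each word on either strand, and percent with a divergent protein-coding partner within 1000 bases, for mitochondrial ribosomal protein genes (purple, 68 genes with a window, 77 for partners) and for expressed protein-coding genes (grey). The purple bars are higher for NRF1, ETS, YY1 and partner genes, at 10.3, 36.8, 17.6 and 23.4%, and lower for SP1, at 50.0%.

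Other genes of mitochondrial translation had lower median levels than the ribosomal proteins. All 12 translation factors were detected in both areas, with a median of 15.9 TPM in replicate 1 and 15.2 TPM in replicate 2. By the mean of both areas, here and in the next lists, the highest were Mtif2 and Tsfm. Mtif2, an initiation factor, was at 68.7 and 69.9 TPM, and Tsfm, an elongation factor, at 45.9 and 37.0 TPM. The lowest by that mean was Mtrf1, a release factor, at 4.67 and 5.21 TPM. All 21 assembly factors were detected, with a median of 10.3 and 10.2 TPM, led by Mterf3 at 83.9 and 107 TPM and Malsu1 at 50.2 and 47.9 TPM, with Ybey lowest at 3.0 and 1.75 TPM. Of 17 mitochondrial aminoacyl-tRNA synthetases 16 were detected in both areas, with a median of 5.64 and 6.31 TPM, led by Lars2 at 67.8 and 74.7 TPM and Rars2 at 43.2 and 45.7 TPM, with Ears2 lowest at 0.76 and 0.86 TPM. The lowest of the 77 ribosomal protein genes, Mrps2, was at 14.0 and 12.1 TPM, between the medians of the translation and assembly factors. Median lengths were 1639 bases for translation factors, 1443 for assembly factors, 2501 for synthetases and 990 for the 77 genes. In the same order, median CPM was 22.2, 13.4, 10.9 and 59.7 in replicate 1 and 26.8, 16.8, 13.5 and 66.5 in replicate 2. What part length takes in these differences was not tested.

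By direction between the areas, and with the same exact binomial test, 5 of the 12 translation factors (41.7%) were called higher in replicate 2 and 3 (25%) in replicate 1. Of the 21 assembly factors 6 (28.6%) and 2 (9.52%) were called, and of the 17 synthetases 8 (47.1%) and 5 (29.4%), against 23.7% and 23.9% of all genes tested. The median log2 ratio was 0.15 for translation factors, 0.12 for assembly factors and 0.02 for synthetases, and Mrrf, the ribosome recycling factor, went from 4.23 to 10.5 TPM. Mtrf1l, a release factor, went from 15.6 to 8.67 TPM. Mrrf and Mtrf1l were named after their values were seen.

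Ribosomal proteins of the mitoribosome that carry other symbols were also present. Chchd1 had 298 TPM in replicate 1 and 288 TPM in replicate 2, Aurkaip1 174 and 189 TPM, Dap3 58.3 and 61.0 TPM, Ptcd3 34.9 and 34.0 TPM and Gadd45gip1, the only one of them in the large subunit, 15.1 and 14.5 TPM. All lay within the range of the 77 genes. Of these 5 genes, 2 had a higher TPM in replicate 2 (40%), against 60 of the 77 (77.9%). Their median log2 ratio, replicate 2 over replicate 1, was -0.04, against 0.12 for the 77 genes. Oxa1l, the inner membrane insertase to which the large subunit docks, had 18.4 and 14.1 TPM.

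The RNAs that the mitoribosome holds and reads were far more abundant. The 13 protein-coding genes of the mitochondrial genome had a median of 3932 TPM in replicate 1 and 3780 TPM in replicate 2. Of these, mt-Atp8 was highest at 12856 and 12898 TPM, mt-Atp6 next at 9847 and 9967 TPM and mt-Nd4l lowest at 139 and 105 TPM. These levels are per annotated gene, and how reads were divided between neighbouring genes was not tested. By counts, which are not corrected for length, mt-Co1 was highest at 178614 in replicate 1 and 150454 in replicate 2. In the same order mt-Atp8 had 23131 and 22560 counts. The ribosomal RNAs mt-Rnr2 and mt-Rnr1 were lower in replicate 2, at 15470 against 9391 TPM and 8185 against 5092 TPM, opposite to the lean of most of the 77 genes. Genes named as proteins of the cytosolic ribosome, by symbols that start with Rpl or Rps and a number and with kinases left out, had a median of 336 and 325 TPM over 82 genes, of which 79 were detected in both areas. The list includes Rps19bp1, which encodes a protein that binds a ribosomal protein and is no subunit. By mean TPM, Rpl41 was highest at 1375 and 1368 TPM, Rpl38 next at 906 and 917 TPM, and Rpl3l, Rpl39l and Rpl10l were listed at 0 in both. Of the 79 genes of this list that reached 1 TPM on average, 36 had more in replicate 2 (45.6%), with a median log2 ratio of -0.01.

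**Figure D5:**
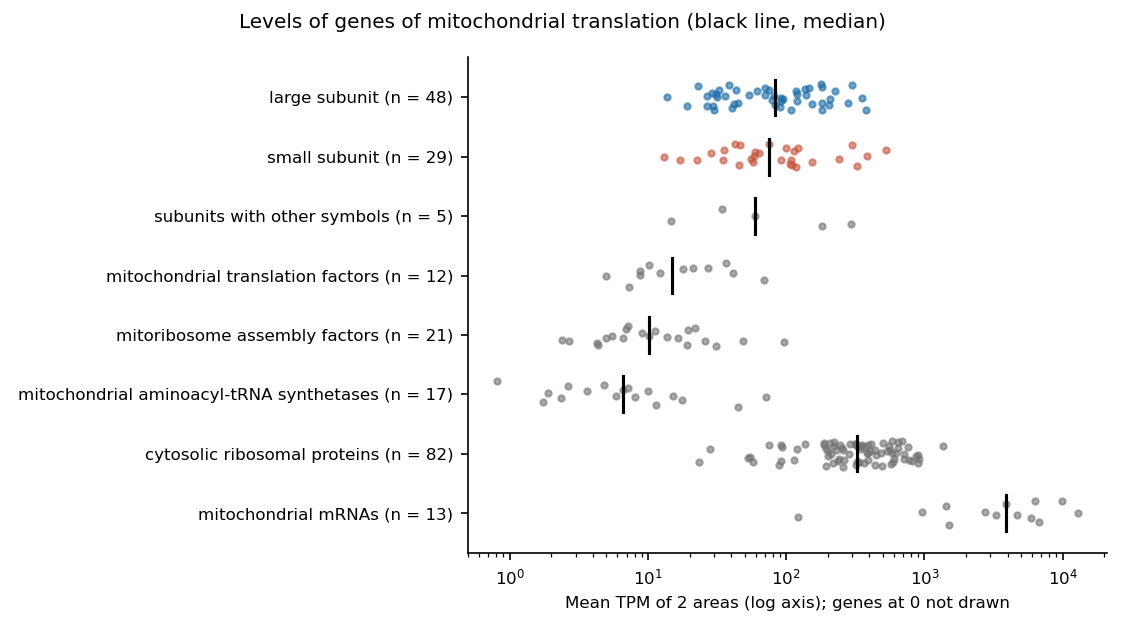
Mean TPM of the 2 areas (log axis), 1 point per gene, for mitochondrial ribosomal protein genes of each subunit and for other lists, with the median as a black line. The medians of the factors and synthetases lie below those of both subunits, and the medians of the genes with cytosolic ribosomal protein symbols and of mitochondrial messenger RNAs lie above, while the ranges overlap.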

How the data were processed

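RNA was measured in 2 laser-captured areas of the granule layer, 1 library each, taken as replicates 1 and 2 of 1 group. Per the deposited notes, reads were quantified on mm10 with the GENCODE M4 annotation; the sources used here name no aligner, counting program or strand setting. The deposited expected counts are estimates per gene that share reads among similar genes and need not be whole, per the file headers. Per the file headers, the deposited TPM values are corrected by the authors for length and depth. The deposited score column is a posterior SD of the count, and the deposited percent column is a transcript's part of its gene.

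Spike-in rows and rows with numeric IDs, which held 2.78% and 3.40% of all counts, were left out. Names, types and coordinates came from GENCODE M21 (GRCm38, which is mm10) for 42462 of 43346 Ensembl IDs matched without version; promoter sequences came from RefSeq and pseudogene and transcript sequences from GENCODE. Total expected counts were 20532709 and 19939370. Rounded counts were compared with the gene totals by an exact binomial test, two-sided (scipy 1.17.1), for genes with a summed count of at least 10, with Benjamini-Hochberg adjustment at 0.05; TMM scaling used edgeR 4.0.16. The test was checked on simulated counts drawn independently, a setting that amplified reads do not meet. Log2 ratios used TPM + 1. Amplified reads are not independent molecules, so p-values cover counting error only. Genes given full statistics were the 5 highest and 5 lowest of each subunit, the 5 furthest apart in each direction and those with a listed role. The members and lists were chosen with earlier results of these data known. Subunit and class follow the standard mitoribosome nomenclature, except for the class of Mrpl55 as given above.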

Additional observations from a re-analysis of the deposited data

How the results depend on the processing

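The large over small subunit difference had no stable sign. Its mean log2 ratio of 0.11 was 0.19 with subunits taken from the structure, 0.062 with the genes of other symbols added and 0.29 for genes under 1000 bases, and it was reversed with mean log2(TPM + 1) at -0.0224, with mean log2(TPM + 0.1) at -0.0217, for genes of 1000 bases or more at -0.13 and without the 3 genes whose reads may be shared at -0.21; leaving out either replicate gave 0.10 to 0.13. The difference by class, -0.52, was -0.28 with mean log2(TPM + 1) and -0.11 on CPM, and -0.58 to -0.47 without either replicate. The correlation of length with level, -0.85, was -0.84 in the large subunit, -0.87 in the small and -0.43 with the longest annotated coding transcript, with -0.86 to -0.85 without either replicate. The count of genes beyond counting error, 43, was 43 with TMM scaling or posterior mean counts, 41 with no filter, 32 at an adjusted p under 0.01 and 0 with counts divided by 10; all of the 41 and of the 32 were among the 43. All 77 genes stayed detected with a TPM minimum of 0.1 or 5 and without either replicate, and the median log2 ratio between the areas ran from 0.09 to 0.13 over 8 alternatives. Of 38 named genes, Mrpl45 at -0.15 and Mrps35 at 0.10 reversed on CPM, and the cause other than estimated length was not tested. The settings by length, by shared reads, by class, for length and for TPM without globins, the median ratio within each subunit, and CPM and posterior mean TPM for the named genes were chosen after seeing the data.

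No paired analysis was possible because the series holds 1 group of 2 areas. With 2 areas under 1 donor label, the spread covers capture, amplification and sequencing, and whether it covers animals is not known.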
